A study of Homo sapiens with 20 samples.

Results

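The matrix metalloproteinases (MMPs) MMP1, MMP2, MMP3, MMP14, MMP15 and MMP16 and the tissue inhibitors of metalloproteinases TIMP1, TIMP2 and TIMP3 were followed as 9 genes of the 43366 in a count table of U2OS cells. U2OS is an osteosarcoma cell line. The genes were chosen by name, and each has its own row in the table. RNA-seq libraries came from 5 WT clones and 5 clones labelled ZBTB48 Knockout (KO), each cultured untreated and with 250 U/ml of interferon gamma (IFNγ) for 24 h, which gave 4 groups of 5 libraries. ZBTB48 is a zinc finger protein that binds telomeres and a set of promoters. All groups share the U2OS background, and every replicate is a clonal line, so the spread within a group is a spread between clones. Changes in the number of cells of a kind and in the RNA per cell cannot be told apart in such bulk libraries.

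MMPs are zinc-dependent endopeptidases that cut collagens, other matrix proteins and many surface proteins. They are made as inactive precursors. MMP1 is the interstitial collagenase, MMP3 is stromelysin 1 and MMP2 is gelatinase A, and all of these are secreted. MMP14, MMP15 and MMP16 are membrane-type MMPs, which sit at the cell surface. TIMPs bind the active site of MMPs and block it, but TIMP2 also bridges MMP14 and the precursor of MMP2, a complex in which MMP2 is activated. TIMP3 stays bound to the matrix and also inhibits several ADAM and ADAMTS proteases. Osteosarcoma and bone cells are well known for MMP2 and MMP14, which take part in bone matrix turnover.

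Total counts per library ranged from 46652288 to 72952859. Levels are given as CPM, counts scaled to the library size after TMM normalization, where 3 counts come to between 0.0404 and 0.061 CPM. Levels of different genes are compared only as RPKM, which divides the CPM by the length in kilobases given in the table. A gene was called in a comparison where edgeR's quasi-likelihood test gave an adjusted p under 0.01 (Benjamini-Hochberg, over all genes tested) and the change was over 2-fold. The IFNγ-inducible genes used as a check, such as IRF1, were called higher after IFNγ in 7 of 7 cases in the WT clones and in 6 of 7 in the clones labelled KO. In the latter all 7 were higher at an adjusted p under 0.05 (edgeR), with a lowest log2 fold change of 2.19. Of the osteoblast markers, RUNX2, SPARC and COL1A1 were present, while SP7, IBSP and BGLAP did not exceed 0.116 CPM and COL1A2 did not exceed 0.945 CPM in any library. Summed haematopoietic markers stayed between 0.266 and 1.09 CPM, and summed endothelial markers did not exceed 4.13 CPM.

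The labels were checked on ZBTB48 itself before any comparison. Untreated WT clones carried 8.88 ± 0.543 CPM of it (SD, n = 5). In the untreated clones labelled KO it stood at 1.29, 1.94, 3.12 and 4.06 CPM in replicates 1, 2, 4 and 5, but at 11.3 CPM in replicate 3. After IFNγ, KO replicate 3 had 15.8 CPM, and the other clones labelled KO had 1.69 to 5.27 CPM. The ZBTB48 transcript of KO replicate 3 was thus not below the WT level. Transcript counts do not show whether protein is made, and the place of the edit is not given in the sources used here. CIITA, the transactivator of MHC class II genes, ran as the labels say in treated libraries, at 3.05 to 18.8 CPM in all 5 labelled KO, replicate 3 included, against 38.2 to 107.4 CPM in the WT clones. A further doubt concerns pairs of libraries. Untreated and treated libraries of the same clone deviated from their group together in the WT clones, with Pearson's r of 0.77 to 0.89 over 15784 genes. In KO replicates 1, 2 and 3 the correlation was 0.77, 0.84 and 0.69, whereas it was -0.01 in replicate 4 and 0.06 in replicate 5. Across these labels the correlation was high, 0.75 for untreated replicate 4 with treated replicate 5 and 0.82 for untreated replicate 5 with treated replicate 4. Each of these treated libraries thus resembled the untreated library of the other clone, and an exchange of labels was not tested. The libraries were kept as labelled, group comparisons do not use the pairs, and clone-wise values of the KO label are also given for replicates 1, 2 and 3 alone.

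MMP15 lies on chromosome 16 of GRCh38 from 58025754 to 58046901, on the forward strand. The 250 bases upstream of the annotated start were taken from RefSeq (GRCh38.p14) for the members the results turn on. MMP15 is shown as the gene that fell most after IFNγ, MMP14 as a membrane-type relative that was lower by less and was not called, and TIMP1 as an inhibitor with no fall. Capitals mark GC boxes, the letters GGGCGG on either strand, which were chosen after the sequences had been seen. MMP15 is from chr16:58025504-58025753, MMP14 from chr14:22836335-22836584 and TIMP1 from chrX:47582186-47582435, all on the forward strand and 5′ to 3′.
MMP15: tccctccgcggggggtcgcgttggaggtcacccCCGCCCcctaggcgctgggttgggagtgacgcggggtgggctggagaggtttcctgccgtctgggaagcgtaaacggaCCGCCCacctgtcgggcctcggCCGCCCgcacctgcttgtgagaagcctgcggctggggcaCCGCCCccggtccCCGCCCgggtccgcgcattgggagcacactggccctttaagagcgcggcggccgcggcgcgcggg
MMP14: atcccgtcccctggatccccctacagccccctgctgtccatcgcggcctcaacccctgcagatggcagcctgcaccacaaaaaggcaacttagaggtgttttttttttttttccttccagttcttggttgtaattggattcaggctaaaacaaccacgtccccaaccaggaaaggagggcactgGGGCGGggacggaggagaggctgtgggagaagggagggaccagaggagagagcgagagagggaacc
TIMP1: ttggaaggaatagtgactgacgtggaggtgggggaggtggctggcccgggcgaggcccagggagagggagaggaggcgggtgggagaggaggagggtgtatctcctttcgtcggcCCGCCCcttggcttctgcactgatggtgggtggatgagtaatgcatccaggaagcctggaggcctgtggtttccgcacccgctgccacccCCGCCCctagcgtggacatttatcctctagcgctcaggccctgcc
The MMP15 window held 5 GC boxes and 31 CG pairs, with a GC content of 74.8%, and 89.1% of the 35116 promoters in the table had fewer CG pairs. The MMP14 window held 1 GC box, 7 CG pairs and a GC content of 56.8%. The TIMP1 window held 2 GC boxes, 12 CG pairs and a GC content of 64.8%. Over all promoters the median was 11 CG pairs, and 42.6% held a GC box. The table held 4 of the 9 genes, the other entry being TIMP3, with 5 GC boxes and 26 CG pairs. None of TGANTCA (AP-1), TTCNNNGAA (the GAS element), a pair of GAAA repeats spaced by 2 bases (an ISRE core), TATAAA and the telomere-like TTAGGG occurred on either strand in the 4 windows. These motifs were held by 6.57%, 6.57%, 3.02%, 10.7% and 7.94% of all windows of that length. The absence says only that these letters are not in these 250 bases.

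Per length, TIMP1 was the most abundant of the 9 transcripts in every group. In the untreated WT clones it had 2128.1 ± 510.3 RPKM (SD, n = 5). MMP2 followed with 194.0 ± 84.1 RPKM (SD, n = 5) and TIMP2 with 193.1 ± 18.3 RPKM (SD, n = 5), and the ranges of these genes overlapped. MMP14 had 104.7 ± 22.0 RPKM (SD, n = 5), below TIMP2 in all 5 libraries. TIMP3 came next with 20.1 RPKM, MMP15 with 7.79 RPKM and MMP16 with 4.62 RPKM, each without overlap with the gene before it. MMP3 stood at 0.98 RPKM and MMP1 at 0.152 RPKM, so the secreted MMPs spanned the whole range of MMP levels. The plot of levels per transcript length shows this order.

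**Figure D1:**
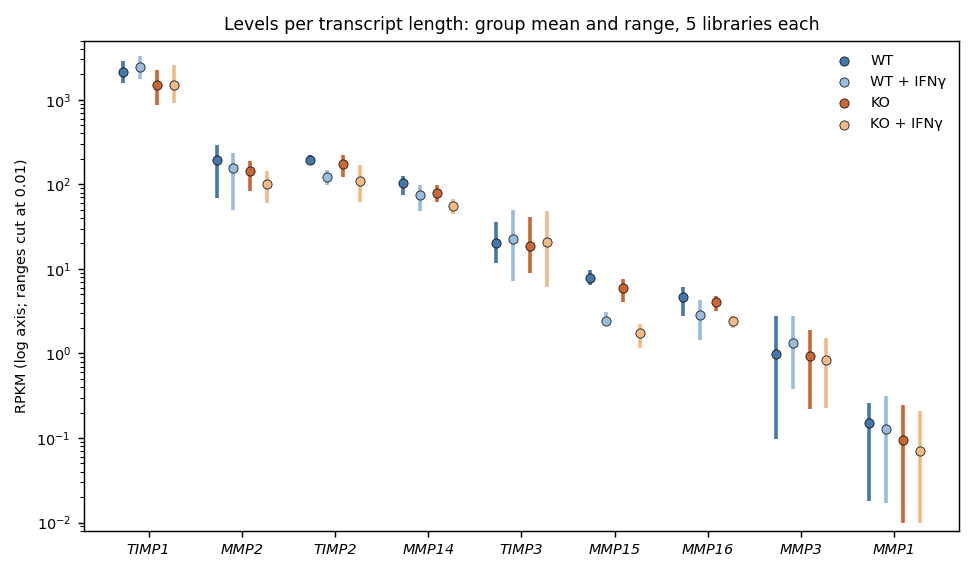
Level of each gene per transcript length (RPKM, log axis) in the 4 groups, with points for the mean and bars for the range over 5 libraries. Bars that reach 0 are cut at 0.01 RPKM, which concerns MMP1 in the clones labelled KO. TIMP1 stands on top in every group. The mean of MMP15 moves from above that of MMP16 to below it after IFNγ, and their ranges overlap except in the untreated WT clones.

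MMP2 and MMP14 together made up 95.0% ± 2.74 (SD, n = 5) of the summed RPKM of the 6 MMPs in the untreated WT clones and 95.0% ± 1.52 (SD, n = 5) in the untreated clones labelled KO. TIMP1 made up 90.6% ± 2.13 and 87.2% ± 6.18 of the summed TIMPs (SD, n = 5 each). The summed TIMPs exceeded the summed MMPs in every library, by a ratio of 8.15 ± 2.96 in the untreated and 12.0 ± 3.85 in the treated WT clones (SD, n = 5 each). In the clones labelled KO the ratio was 7.98 ± 4.38 untreated and 11.5 ± 6.99 treated (SD, n = 5 each). These ratios are of transcripts, and the ranges of treated and untreated libraries overlapped.

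The first question was which of these genes change after IFNγ. In the WT clones MMP15 fell about as far in each clone, and it was the only member called. TIMP2 was lower at an adjusted p under 0.05 (edgeR), but by less than 2-fold. MMP14 and MMP16, the other membrane-type members, were lower in each of the 5 clones, and so was the secreted MMP2. This direction was shared by 31.0% of the 15784 genes with at least 1 CPM in 5 libraries. No member was called higher. Beside this, the summed epithelial markers ranged from 5.10 to 50.4 CPM untreated and from 2.51 to 24.2 CPM treated in the WT clones. In these clones the median of KRT14 was 9.9 CPM untreated and 1.61 CPM treated, and that of EPCAM 2.77 and 2.69 CPM. That of KRT5 was 0.333 and 0.152 CPM, while CDH1 went the other way at 0.264 and 0.741 CPM. KRT20 also did, at 0.0353 and 0.0725 CPM, near the floor. The part of these markers in the result was not tested.

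MMP15 had 29.7, 26.3, 36.6, 39.2 and 26.4 CPM in untreated WT replicates 1 to 5, and 9.03, 9.14, 12.5, 10.3 and 8.63 CPM in the treated libraries. Every treated library lay below every untreated library. Each clone kept between 26.3% and 34.7% of its untreated level. The log2 fold change was -1.66 (SE 0.16, adjusted p = 7.08e-05, edgeR's quasi-likelihood test), a 3.16-fold fall. MMP15 was thus 1 called member of 9 tested in the WT clones, where 0.512% of 19522 tested genes were called lower.

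In the clones labelled KO, MMP15 had 30.6, 27.8, 21.9, 23.8 and 16.4 CPM untreated and 8.71, 9.02, 4.69, 5.75 and 7.41 CPM after IFNγ. The groups again did not overlap. This was a log2 fold change of -1.76 (SE 0.23, adjusted p = 0.00112, edgeR's quasi-likelihood test), a 3.39-fold fall. MMP15 was 1 called member of 8 tested here, where 0.258% of 19385 genes were called lower. MMP1 was left out by edgeR's filter on low counts. The call did not hold without KO replicate 4, where the log2 fold change was -1.70 (adjusted p = 0.0162, edgeR). Without KO replicate 3, the clone with WT-like ZBTB48, it was -1.67 (adjusted p = 0.00642, edgeR). With the clone as a block and without KO replicates 4 and 5 it was -1.89 (adjusted p = 0.00151, edgeR).

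**Figure D2:**
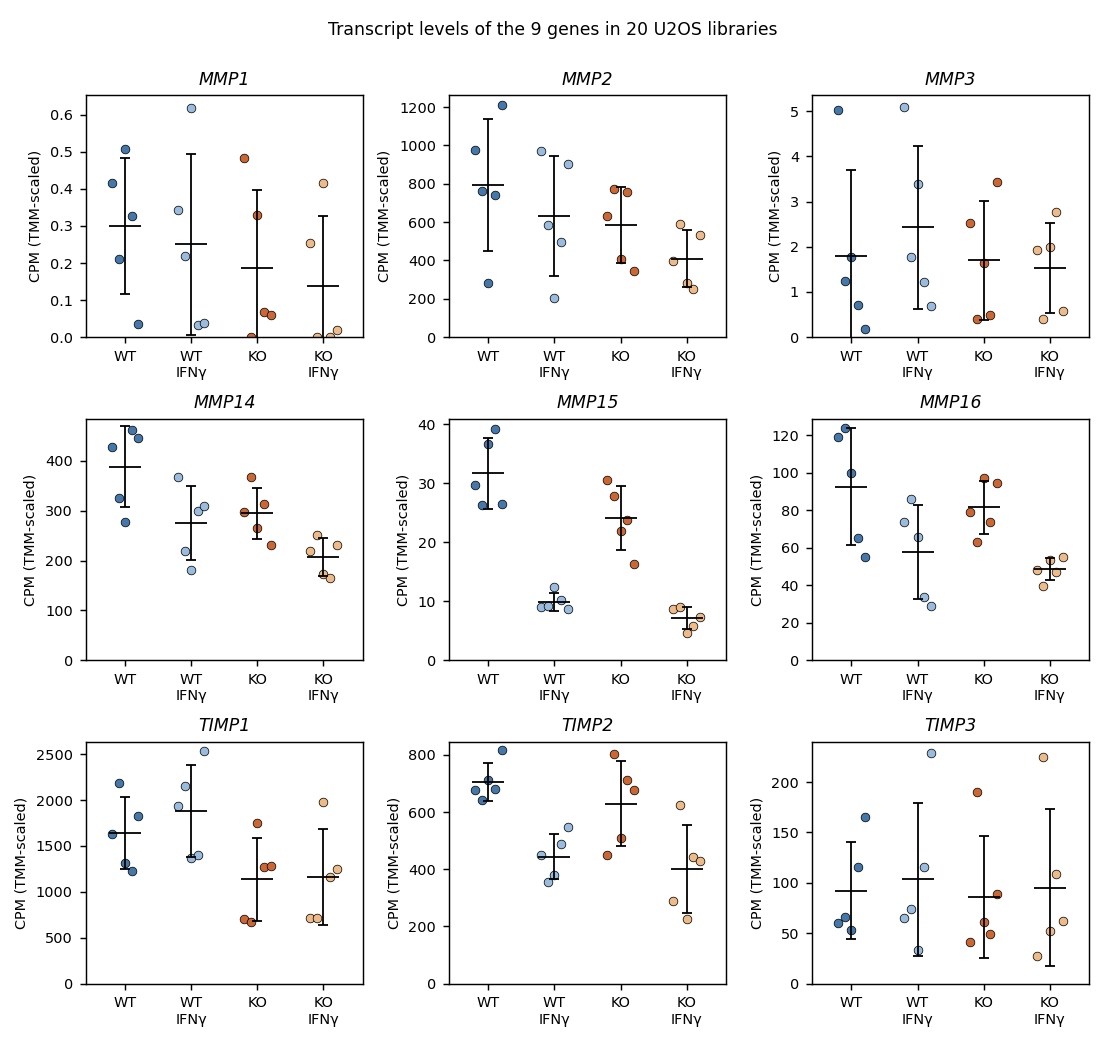
CPM (linear axes from 0) of each gene in the 20 libraries, 5 points per group, with the mean and SD in black and SD bars cut at 0. The treated MMP15 libraries sit between 4.69 and 12.5 CPM, below all untreated ones, while the groups of TIMP3, MMP2 and MMP3 overlap.

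TIMP2, the inhibitor that also takes part in MMP2 activation, is on chromosome 17 from 78852977 to 78925387 on the reverse strand. It had 676, 641, 712, 681 and 816 CPM in the untreated WT clones and 449, 355, 379, 489.7 and 547 CPM after IFNγ. The groups did not overlap, and the spread between the untreated WT clones was small. Its log2 fold change was -0.65 (SE 0.14, adjusted p = 0.0122, edgeR's quasi-likelihood test), which passed 0.05 but neither cut-off of a call. Among 15784 genes with at least 1 CPM in 5 libraries, 5.06% were lower without overlap in this comparison, and MMP15 and TIMP2 were the 2 members of that kind.

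With the KO label, TIMP2 had 448, 804.5, 510.2, 711 and 676 CPM untreated and 289, 624, 226, 444 and 427 CPM after IFNγ. Every labelled pair was lower after IFNγ, and the groups overlapped only through KO replicate 2, whose treated library lay above untreated libraries of other clones. The log2 fold change was -0.65 (SE 0.26, adjusted p = 0.161, edgeR). With the clone as a block it was -0.70 (adjusted p = 0.00634, edgeR), and without KO replicates 4 and 5 in that fit it was -0.73 (adjusted p = 0.0331, edgeR).

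MMP16, a membrane-type MMP that can activate MMP2, lies on chromosome 8 from 88032011 to 88327483 on the reverse strand. It had 119, 124.0, 99.7, 65.2 and 55.0 CPM in the untreated WT clones and 73.7, 85.7, 65.9, 33.9 and 28.9 CPM after IFNγ. All 5 clones were lower after IFNγ, but the clones differed so much from each other that the groups overlapped. MMP16 thus had a log2 fold change of -0.67 (SE 0.33, adjusted p = 0.231, edgeR). Clones labelled KO lay closer together, with 78.8, 63.2, 97.1, 73.8 and 94.3 CPM untreated and 48.1, 39.8, 53.3, 47.0 and 55.1 CPM treated. These groups did not overlap, nor did those of MMP15, and 3.98% of the 15784 genes were lower without overlap in these clones. Here the log2 fold change was -0.74 (SE 0.14, adjusted p = 0.0105, edgeR's quasi-likelihood test), just outside the 0.01 cut-off. By the 0.05 rule, MMP15 and MMP16 were the 2 members lower in these clones, where 2.47% of all genes tested were, while MMP15 and TIMP2 were the 2 in the WT clones, where 4.30% were.

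MMP14, the membrane-type MMP that activates MMP2 together with TIMP2, lies on chromosome 14 from 22836585 to 22847758. It had 428, 326, 277, 462 and 445 CPM in the untreated WT clones and 367, 219, 181, 300.1 and 308 CPM after IFNγ. All clones were lower after IFNγ, and the groups overlapped. In the clones labelled KO it ranged from 232 to 367 CPM untreated and from 164.0 to 250.4 CPM treated. The log2 fold change was -0.48 (SE 0.21, adjusted p = 0.191, edgeR) in the WT clones and -0.51 (SE 0.16, adjusted p = 0.0716, edgeR) in the clones labelled KO. Without KO replicates 4 and 5, with the clone as a block, the adjusted p in the latter was 0.0175 (edgeR).

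MMP2, the most abundant MMP, lies on chromosome 16 from 55478830 to 55506691, on the same chromosome and strand as MMP15. It had 975, 764, 279.9, 741 and 1211 CPM in the untreated WT clones and 970.0, 583, 205, 497 and 903 CPM after IFNγ. WT replicate 3 was the lowest and replicates 1 and 5 were the highest clones in both states. Clones labelled KO ranged from 346 to 772 CPM untreated and from 249 to 591 CPM treated. KO replicate 5 was the only labelled pair that was higher after IFNγ (346 to 531 CPM), while replicate 4 went from 758 to 249 CPM, and both values rest on the pairing that the correlations go against. For MMP2 the log2 fold change was -0.31 (SE 0.43, adjusted p = 0.727, edgeR) in the WT clones and -0.51 (SE 0.29, adjusted p = 0.332, edgeR) in the clones labelled KO.

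The other members gave no call. TIMP1 (chromosome X, 47582436 to 47586789) was at 1637 ± 392 CPM untreated and 1880 ± 499 CPM treated in the WT clones (SD, n = 5 each), and edgeR gave a log2 fold change of 0.22 (SE 0.21, adjusted p = 0.596). TIMP3 (chromosome 22, 32801705 to 32863041) was at 92.3 ± 47.7 and 103 ± 76.3 CPM (SD, n = 5 each), and its log2 fold change was 0.19 (adjusted p = 0.872, edgeR). The interstitial collagenase MMP1 and stromelysin 1, MMP3, lie close to each other on chromosome 11, on the reverse strand, from 102789919 to 102798160 and from 102835801 to 102843609. MMP3 had 5.03, 1.25, 1.77, 0.701 and 0.177 CPM in the untreated and 5.09, 1.77, 3.39, 1.21 and 0.695 CPM in the treated WT clones, with a log2 fold change of 0.46 (adjusted p = 0.781, edgeR). MMP1 had between 0 and 46 counts in a library, and both libraries of KO replicate 2 were at 0. The log2 fold changes in the clones labelled KO were 0.03 for TIMP1 (adjusted p = 0.971), 0.14 for TIMP3 (adjusted p = 0.914) and -0.15 for MMP3 (adjusted p = 0.923), all by edgeR. A change of MMP1 was not detectable at this depth, and 7.61% of its exonic bases also belong to WTAPP1 on the opposite strand.

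Since the labels name the clone of each library, the same libraries were also compared clone by clone. MMP15, MMP16, MMP14 and TIMP2 were lower after IFNγ in all 10 labelled pairs, and so in the 8 pairs without KO replicates 4 and 5. Among the 15784 genes, 31.0% were lower in all 5 WT clones, 19.2% in all 5 pairs labelled KO and 31.4% in KO replicates 1, 2 and 3, so that direction alone is common. The mean clone-wise log2 difference of MMP15 was -1.66 ± 0.16 (SD, n = 5) in the WT clones and -1.76 ± 0.41 (SD, n = 5) in the clones labelled KO, or -1.87 ± 0.30 (SD, n = 3) in KO replicates 1, 2 and 3. That of MMP16 was -0.74 ± 0.19 and -0.73 ± 0.09 (SD, n = 5 each), or -0.75 ± 0.10 (SD, n = 3) in those replicates. An exact sign-flip permutation test over 5 clones cannot go below p = 0.0625, and it gave p = 0.0625 for these 4 genes in both labels. Over KO replicates 1, 2 and 3 the exact sign-flip permutation test cannot go below p = 0.25, the value it gave for each of these 4 genes. For MMP2, all 5 WT clones were lower, and with the KO label 4 of 5 pairs were, or 3 of 3 without replicates 4 and 5. MMP3 was higher in 5 of 5 WT clones (mean log2 difference 0.73 ± 0.55, SD, n = 5), but it ranged from -2.40 to 2.28 in the clones labelled KO, and both ends of that range were KO replicates 4 and 5. In KO replicates 1, 2 and 3 it lay between -0.38 and 0.27. Untreated KO replicates 4 and 5 had 0.489 and 3.44 CPM of MMP3, and the treated libraries 2.76 and 0.572 CPM.

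**Figure D3:**
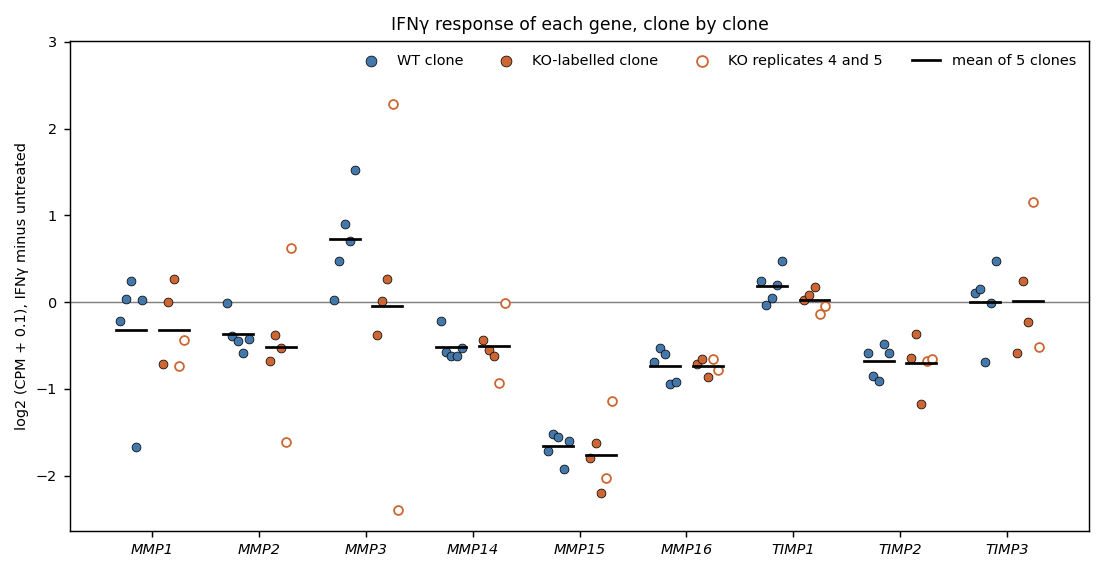
Log2 difference in CPM + 0.1 between the treated and the untreated library of each clone, for each gene, with black lines for the mean of 5 clones and open circles for KO replicates 4 and 5, whose libraries did not deviate together. MMP15 lies between -2.20 and -1.14 in all 10 clones, and the highest KO-labelled point of MMP2, MMP3, MMP14, MMP15 and TIMP3 is an open circle.

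With the clone as a block, more genes passed in the WT clones. There, 5 members were lower at an adjusted p under 0.05 by edgeR (MMP15, TIMP2, MMP16, MMP14 and MMP2) and 2 were higher (MMP3 and TIMP1). In the same fit 24.1% of all genes tested were lower and 22.9% were higher by that rule, against 4.30% and 6.98% without the block. MMP15 was the only one of them that also passed the 2-fold cut-off. The blocked log2 fold changes were -0.72 for MMP16 (adjusted p = 4.39e-06, edgeR) and -0.67 for TIMP2 (adjusted p = 1.51e-05, edgeR). In the clones labelled KO the block put 4 members lower, MMP15, MMP16, MMP14 and TIMP2, where 9.95% of all genes were lower. Without KO replicates 4 and 5 the block put 5 members lower, MMP2 being the addition, where 6.24% of all genes were lower.

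The IFNγ response was then compared between the labels. For MMP15 the difference in log2 response between WT clones and clones labelled KO was 0.09 (SE 0.27), and the adjusted p was 1.00 by edgeR's quasi-likelihood test over 21052 genes. None of these genes, CIITA among them, was called by edgeR or DESeq2, and 86 had an unadjusted p under 0.05 by edgeR, none of them a member. The differences of the other members lay between -0.02 for TIMP2 and 0.60 for MMP3, whose SE was 1.07. That fit takes the libraries of a clone as independent, which widens its SE where they deviate together. With the clone as a block, 317 genes had an unadjusted p under 0.05 by edgeR, none of them called and none a member. The blocked difference of MMP15 was 0.10 (SE 0.18). Without KO replicates 4 and 5 in the blocked fit it was 0.22 (SE 0.15), and that of MMP3 was 0.78 (SE 0.38). At an unadjusted exact permutation p, the smallest of the 9 was 0.127, for TIMP1. Without KO replicates 4 and 5 the smallest was 0.0714, for MMP3 (exact permutation test of 5 against 3 clones). In the fit without the block, leaving out single clones put the MMP15 difference between 0.00 and 0.22. A p above the threshold does not show that the responses are alike.

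The second comparison asked whether the levels differ between WT clones and clones labelled KO. No member was called in untreated or in treated libraries by edgeR or DESeq2. In treated libraries none of the 7 IFNγ-inducible check genes was called or passed an adjusted p of 0.05 by edgeR. CIITA is one of them, at 79.3 ± 31.1 CPM in the WT clones and 9.31 ± 6.05 CPM in the clones labelled KO (SD, n = 5 each). A difference of that size was thus not called here, and smaller ones of the members can be missed. MMP14 in untreated libraries, and MMP15 and TIMP1 in treated ones, were the members with an unadjusted p under 0.05 by edgeR. These are 1 and 2 members of 9, beside 4.79% and 4.35% of all genes tested by that rule. Called were only 0.0154% of 19505 and 0.0155% of 19383 genes. The fitted values of all 9 members were above 0 (higher in WT clones) in both states, with medians of 0.39 and 0.48, beside medians of 0.00 and -0.02 over all genes tested. For untreated MMP3, fitted at 0.07 (SE 0.79), the mean log2 (CPM + 0.1) went the other way, at -0.15 for WT minus KO. The adjusted p of every member was at least 0.98 by edgeR's quasi-likelihood test. No member was without overlap between the labels, as 1.02% and 0.849% of the 15784 genes were. The direction of MMP3 and TIMP3 in untreated libraries, and of TIMP2 and TIMP3 in treated ones, turned when single clones were left out.

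**Figure D4:**
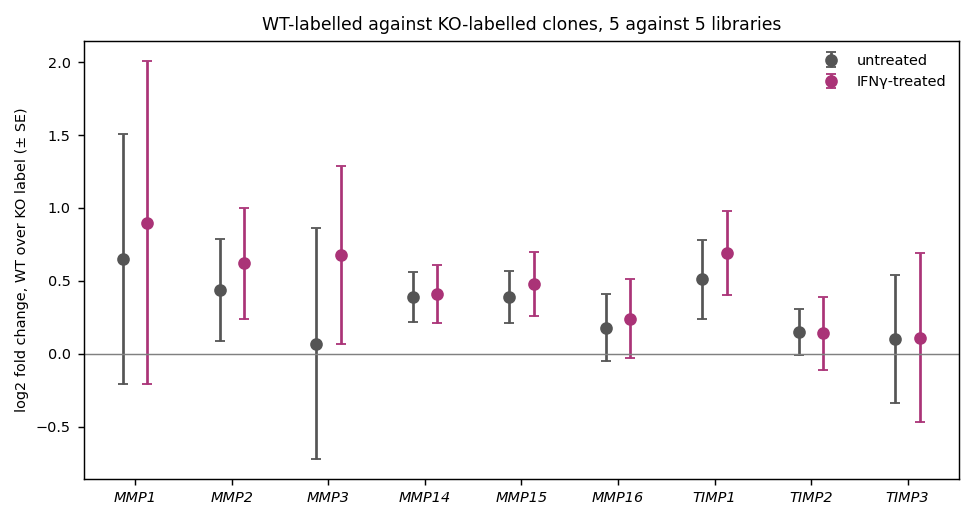
Log2 fold change of WT clones over clones labelled KO for each gene, with SE bars, from edgeR's fit of 5 against 5 libraries, untreated and IFNγ-treated. All points lie above 0, and none passed the test.

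TIMP1, which inhibits most secreted MMPs and inhibits membrane-type MMPs poorly, showed the widest gap among the well-expressed members. In the untreated clones it had 1629, 2191, 1316, 1223 and 1824 CPM in WT replicates 1 to 5, and 707, 674, 1747, 1276 and 1284 CPM in KO replicates 1 to 5. KO replicates 1 and 2 were the lowest of these 10 libraries, and KO replicate 3 lay among the WT clones. After IFNγ the values were 1935, 2149, 1367, 1407 and 2539.6 CPM in the WT clones and 716, 710.2, 1979, 1165 and 1247 CPM in the clones labelled KO, in the same arrangement. WT clones exceeded clones labelled KO by a log2 fold change of 0.51 (SE 0.27, adjusted p = 0.98, edgeR) untreated and 0.69 (SE 0.29, adjusted p = 0.996, edgeR) treated.

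By an unadjusted two-sided exact permutation test of TIMP1 alone, p was 0.119 untreated and 0.0476 treated. Without KO replicate 3, a choice made after seeing the data, the 5 treated WT libraries all lay above the 4 labelled KO. The mean log2 difference was 0.98, with an exact permutation p of 0.00794, the smallest that 5 against 4 libraries can give. KO replicate 3 was the only treated library labelled KO above the lowest treated WT library (1979 against 1367 CPM). Its removal thus fixed this p in advance. In that selection 1.82% of the 15784 genes did not overlap, and the adjusted p of TIMP1 over all genes was 0.947 by edgeR. Untreated, the mean log2 difference without that clone was 0.77 (exact permutation p = 0.0556). MMP15 was the other member with an unadjusted exact permutation p under 0.05 in treated libraries (mean log2 difference 0.50, p = 0.0317). Without KO replicate 3 its difference was 0.36 (exact permutation p = 0.0556).

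TIMP1 was also compared with every other gene for likeness of pattern. Over the 20 libraries, among 15118 genes with a mean of at least 1 CPM, the gene whose log2 CPM was most correlated with that of TIMP1 was ZBTB48 (Pearson's r = 0.87), followed by PSAP (0.86) and ABHD2 (0.84). The points share clones, with 2 libraries each, and no p is given. ZBTB48 was picked as the top gene over these 20 libraries, so its r in parts of them is not a separate test. The r between ZBTB48 and TIMP1 was 0.95 over the 10 libraries labelled KO, 0.92 over the 8 without KO replicate 3, and -0.13 over the 10 WT libraries. The clones labelled KO thus ran from replicates 1 and 2, low in both genes, through replicates 4 and 5 to replicate 3, high in both, while the WT clones, all between 8.03 and 11.6 CPM of ZBTB48, showed no such order.

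**Figure D5:**
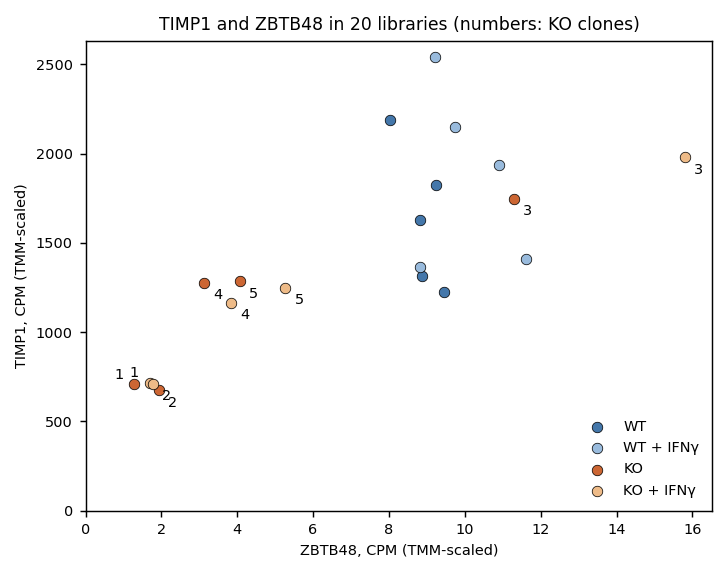
CPM of TIMP1 against CPM of ZBTB48 in the 20 libraries (linear axes from 0), with replicate numbers at the clones labelled KO. KO replicates 1 and 2 have 674 to 716 CPM of TIMP1, and KO replicate 3 has 1747 and 1979 CPM, within the WT range.

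Members also differed in how far clones of a label stood apart. The fold between the highest and the lowest WT clone, averaged over both states, was 11.0 for MMP3, 4.62 for TIMP3, 4.36 for MMP2 and 2.58 for MMP16. It was 1.77 for MMP14, 1.65 for TIMP1, 1.41 for MMP15 and 1.40 for TIMP2. In the clones labelled KO, TIMP3 had the widest fold of the members above 10 CPM, 6.07, with KO replicate 2 at 189.9 and 225 CPM and KO replicate 1 at 41.6 and 27.7 CPM. TIMP1 followed with 2.69, and both folds were the same without KO replicates 4 and 5. TIMP2 and MMP15 thus had the narrowest spread between WT clones among the 9 genes.

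Over the 20 libraries, MMP2 and MMP14 were the members most alike (r = 0.85), followed by MMP15 and TIMP2 (0.74). MMP1 and TIMP3 were the most opposed (r = -0.72). MMP1 had group means of 0.138 to 0.299 CPM and between 0 and 46 counts in a library. The r of MMP1 with TIMP3 thus rests on few counts. The genes most like MMP15 were HECTD3 (0.97), HSPA1B (0.95) and MED31 (0.95), and those most like TIMP2 were RAB8A (0.95), GPSM2 (0.94) and CCNF (0.94). Most like MMP16 were TYRO3 (0.91), TTI2 (0.90) and SDHA (0.89), most like MMP14 were TTC5 (0.88), PCGF3 (0.87) and CTSD (0.87), and most like MMP2 were CAMK1 (0.89), HAPLN2 (0.86) and CTNNB1 (0.85). For MMP1 they were SLAMF7 (0.91), PPP2R3A (0.89) and GALNT14 (0.87), for MMP3 COL6A2 (0.91), LOC102724594 (0.89) and MCUB (0.88), and those for TIMP3 included LOC151760 (0.91) and LATS2 (0.90). These values are descriptions over libraries that share clones and treatment. Those of MMP1 also rest on few counts, and MMP1 itself lay below the mean of 1 CPM asked of the genes compared.

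Other genes of the system were read from lists for comparison. Of 17 other MMPs, 8 were tested in the WT clones, and MMP25, a membrane-anchored MMP of leukocytes, was called higher after IFNγ. It rose from 1.32 ± 0.518 to 3.98 ± 0.341 CPM (SD, n = 5 each), or by 1.60 on the log2 scale (adjusted p = 0.00441, edgeR). Its log2 fold change in the clones labelled KO was 1.51 (adjusted p = 0.0107, edgeR), just outside the cut-off. A2M, the alpha-2-macroglobulin that traps proteases of many kinds, rose with a log2 fold change of 1.66 (adjusted p = 0.00436, edgeR) in the WT clones. In the clones labelled KO its log2 fold change was 1.63 (SE 0.98, adjusted p = 0.357, edgeR), which was not called. Of 14 ADAM and ADAMTS proteases tested, ADAMTS12 was called lower in the WT clones, with 145 ± 19.9 CPM untreated, 48.3 ± 8.95 CPM treated (SD, n = 5 each) and an edgeR log2 value of -1.57 (adjusted p = 5.29e-05). With the KO label ADAMTS12 was not called, at a log2 fold change of -1.66 (SE 0.61, adjusted p = 0.125, edgeR).

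Of 11 AP-1, ETS and RUNX factors, which act on many MMP promoters, FOS and FOSB were called lower in the WT clones. FOS fell from 737 ± 210.4 to 92.1 ± 49.5 CPM (SD, n = 5 each), which edgeR fitted as a log2 fold change of -2.99, and FOSB had a log2 fold change of -3.72 (adjusted p = 0.000411 and 0.000533, edgeR). FOS was also called lower in the clones labelled KO (log2 fold change -2.32, adjusted p = 0.00419, edgeR). The list as a whole did not fall, as 7 of the 11 factors were fitted above 0 in the WT clones, with a median of 0.09. FOSL1 had 37.6 ± 14.7 CPM untreated and 104.8 ± 39.4 CPM treated in these clones (SD, n = 5 each). With the clone as a block, 5 of the 11 were higher and 3 lower at an adjusted p under 0.05 by edgeR, and 1 and 2 of them were called. None of the 5 tested genes of the plasmin system, of the 12 activation and surface partners such as FURIN, BSG and CD44, or of the 9 tested matrix substrates passed an adjusted p of 0.05 in the WT clones by edgeR without the block. With the clone as a block, 3 of 5, 8 of 12 and 6 of 9 did, none of them past 2-fold at the 0.01 cut-off, where 24.1% of all genes were lower and 22.9% higher at 0.05. The median log2 fold change was -0.24 over the activation and surface partners and -0.31 over the 9 members, beside -0.03 over all genes tested.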

How the data were processed

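The authors aligned stranded poly(A) RNA-seq reads to GRCh38 with STAR 2.7.9a, retained uniquely mapped reads, and ran featureCounts 2.4.0 against the RefSeq annotation, per the labels and the methods. They deposited raw counts of 43366 genes in 20 columns, without normalization, and the strand setting of the counting is not given in the sources used here. Libraries were grouped by the genotype and treatment in their labels. All calculations used R 4.3.3, edgeR 4.0.16 (TMM, its filter on low counts, robust quasi-likelihood test, Benjamini-Hochberg adjustment over all genes tested) and Python 3.11.15, with DESeq2 1.42.0, which the study used, as an alternative. The code was tested on simulated data. Each comparison used its own 10 libraries, and the difference of responses all 20. Single values were compared by two-sided exact permutation tests of log2 (CPM + 0.1), which cannot go below p = 0.00794 for 5 against 5 libraries. Total counts limit precision for genes with few counts, and 3 counts were taken as the floor. Intervals from counting do not cover differences between clones.

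The clone labels pair treated with untreated libraries. Same-numbered libraries deviated together (r over 0.6) in 8 of 10 clones, and not in KO replicates 4 and 5, which were high only across the numbers and were kept as labelled. Replicate numbers do not pair WT with KO clones. Alternatives were other size factors, library totals, no filter, DESeq2, a replicate block, all 20 libraries together, other cut-offs, another pseudocount and leaving out each clone. The members and lists were chosen with earlier results of these data known. Named genes are the 9 members, list genes past both cut-offs (at most 5 per list and comparison) and the 3 genes most correlated with a member. Genes just outside a cut-off, the comparison without KO replicate 3, the clone-wise values without KO replicates 4 and 5 and the GC box were chosen after values were seen. Promoter windows came from a RefSeq table (GRCh38.p14) that matched 4 of 9 members. A few genes that these rules select are not reported here.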

Additional observations from a re-analysis of the deposited data

How the results depend on the processing

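Of the member fold changes, MMP15 kept its direction in both responses under all alternatives run, and its call was lost only without KO replicate 4. At an adjusted p under 0.05 with no fold cut-off, 2 members passed in each response (MMP15 with TIMP2 in WT clones and with MMP16 in clones labelled KO). The number of members called ranged from 0 to 1 in the clones labelled KO when single clones were left out, and was 1 throughout in the WT clones. Counts of all genes called moved more. The WT response gave 585 genes, 1414 with the replicate block, 976 with DESeq2 not shrunk, 943 at an adjusted p under 0.01 and 2202 at 0.05 with no fold cut-off, and 318 to 457 without single clones. The response of clones labelled KO gave 379 genes, 721 with the replicate block, 823 with DESeq2 not shrunk, 613 shrunk, 642 with all 20 libraries together, 1528 at an adjusted p under 0.05, and 131 to 490 without single clones. The untreated label comparison gave 3 genes, 5 with no filter, DESeq2 shrunk or all 20 libraries, 1 with the replicate block, 12 with DESeq2 not shrunk, 6 at an adjusted p under 0.05, and 2 to 4 without single clones. Between labels the replicate block joins unrelated clones by their number alone, so its count carries no weight. The treated label comparison gave 3 genes, 5 with no filter, 16 with DESeq2 not shrunk, 6 shrunk or with all 20 libraries, and 3 to 5 without single clones. The cause of these moves was not tested.

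No fold change that turned its sign was called. Those larger than their SE were untreated MMP3 between labels without WT replicate 1 (-0.82, SE 0.74) and TIMP3 in the KO response with the replicate block and without KO replicates 4 and 5 (-0.19, SE 0.17). With library totals, TIMP1 in the KO response was -0.02, and the difference of responses was -0.01 for MMP14 and -0.02 for TIMP3. With no filter the difference was 0.01 for TIMP2. With the replicate block it was 0.00 for MMP14 and MMP16 and 0.02 for TIMP2, and without KO replicates 4 and 5 in that fit it was 0.05 for TIMP2 and -0.17 for MMP1, while TIMP3 in the KO response was -0.19. With a pseudocount of 1 CPM the clone-wise difference of MMP1 was 0.00. Leaving out single clones put the WT response of MMP1 between -0.61 and 0.10 and of TIMP3 between -0.02 and 0.27. It put the KO response of MMP3 between -0.72 and 0.49, of TIMP1 between -0.03 and 0.08 and of TIMP3 between -0.06 and 0.28. Between labels it put untreated MMP3 between -0.82 and 0.50 and TIMP3 between -0.22 and 0.60, and treated TIMP2 between -0.01 and 0.36 and TIMP3 between -0.41 and 0.72. The difference of responses lay between -0.17 and 0.87 for MMP1, -0.07 and 0.44 for MMP2, -0.03 and 1.16 for MMP3, -0.08 and 0.14 for MMP14, -0.10 and 0.09 for TIMP2, and -0.19 and 0.22 for TIMP3. Clone-wise values without KO replicates 4 and 5, chosen after seeing the data, turned for TIMP3 in the KO label (-0.19) and in the difference of responses for MMP1 (-0.17), MMP14 (0.02), MMP16 (0.01) and TIMP3 (0.20). Without KO replicate 3 the exact permutation test of treated MMP15 between labels gave a difference of 0.36 and p = 0.0556. MMP1 rests on at most 46 counts per library.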
